A study of Mus musculus with 94 samples.

Results

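The 10 genes described here were *Vim*, the annexin genes *Anxa1*, *Anxa2*, *Anxa3*, *Anxa5* and *Anxa6*, the S100 genes *S100a6*, *S100a10* and *S100a11*, and *Lgals1*. They were chosen by name, with earlier results of these data known. All 10 had a row among the 16069 genes of the deposited matrix. The matrix holds single primary perivascular adipose-derived stem cells (PV-ADSCs), which were isolated from the fat around the thoracic aorta of C57BL/6J mice (c57/bl in the sample labels) aged 8 weeks, with no treatment or transgene. The tissue was digested with collagenase and the cells were sorted as nucleated, living, CD45-, CD144-, CD29+ and Sca1+, and each cell gave 1 SMART-seq library. Of the 94 cells the series describes, 85 had a column and were analysed. As no animal is named for any cell, all cells counted as 1 sample, so differences between cells are given with SDs and counts but with no p value.

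The cells were divided by *Dcn*, the gene of the matrix proteoglycan decorin. The 58 cells with a deposited *Dcn* value of 1000 or more are called stromal cells here and the remaining 27 are called other cells. The stromal label fitted the markers in 57 of the 58 cells, which held 3 or more of 12 stromal markers at 100 or more reads. The median was 10 of the 12 in a stromal cell and 0, with at most 1, in another cell. Of 15 endothelial markers, 3 or more were at 100 or more reads in 24 of the 27 other cells and in 1 of the 58 stromal cells. *Cdh5*, the gene of the gated-out CD144, was above 0 in 23 of the other cells. The threshold fell in a wide gap of the deposited values. The cells just outside it had *Dcn* values of 239 and 269, and those just inside had 6521 and 11185. The cell at 6521 stood apart, because its *Dcn* value came from 69 reads multiplied by a factor of 94.5. It had the fewest reads (1146945) and 850 genes above 0. In *Dcn* reads it lay below both cells just outside the threshold (248 and 111). It held 0 of the 12 stromal markers at 100 or more reads, so its stromal label rests on the factor. Without it all 10 genes kept their call, and the differences given below for single genes ran from 2.43 (*Anxa3*) to 11.79 (*Anxa1*) in place of 2.39 to 11.65. Values below include it unless stated.

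Recovered reads per cell lay between 1146945 and 4776510, and their median was 2963854 in stromal and 2714449 in other cells. The number of genes above 0 differed more, from 850 to 4148 with a median of 2813 in stromal cells and from 285 to 2278 with a median of 1416 in other cells. That difference went with every comparison between stromal and other cells below, and its part in them was not tested.

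Vimentin is the intermediate filament protein of mesenchymal cells and is also present in endothelium. Annexins are proteins that bind acidic membrane phospholipids when calcium rises, and they take part in membrane repair, trafficking and the control of inflammation. S100 proteins are small EF-hand calcium sensors that act by binding other proteins. S100A10 forms a complex with annexin A2 and S100A11 one with annexin A1, so that proteins of both families work as partners at the membrane. Galectin-1, the product of *Lgals1*, binds β-galactoside sugars on the cell surface and in the matrix.

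RefSeq promoters on GRCm38.p6 were at hand for 6 of the 10 genes, namely *Vim*, *Anxa1*, *Anxa2*, *Anxa5*, *S100a6* and *S100a11*. Of these, 4 are given here as the 250 bases before the start site, 5′ to 3′ on the gene's own strand, because the results turn on these genes.
Vim: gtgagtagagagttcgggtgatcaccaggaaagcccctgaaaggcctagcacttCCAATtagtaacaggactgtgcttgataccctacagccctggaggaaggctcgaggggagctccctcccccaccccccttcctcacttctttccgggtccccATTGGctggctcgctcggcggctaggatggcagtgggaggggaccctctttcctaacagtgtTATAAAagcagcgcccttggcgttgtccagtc
Anxa1: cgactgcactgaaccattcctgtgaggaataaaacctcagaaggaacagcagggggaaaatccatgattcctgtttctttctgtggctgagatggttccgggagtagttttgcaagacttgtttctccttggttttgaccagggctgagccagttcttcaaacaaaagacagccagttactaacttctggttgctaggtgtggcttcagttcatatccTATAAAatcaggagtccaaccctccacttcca
Anxa2: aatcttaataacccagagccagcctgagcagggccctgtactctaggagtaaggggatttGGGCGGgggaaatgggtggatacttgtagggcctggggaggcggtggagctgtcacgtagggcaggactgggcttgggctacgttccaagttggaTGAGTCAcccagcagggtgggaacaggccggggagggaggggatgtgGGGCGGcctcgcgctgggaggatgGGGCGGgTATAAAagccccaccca
S100a11: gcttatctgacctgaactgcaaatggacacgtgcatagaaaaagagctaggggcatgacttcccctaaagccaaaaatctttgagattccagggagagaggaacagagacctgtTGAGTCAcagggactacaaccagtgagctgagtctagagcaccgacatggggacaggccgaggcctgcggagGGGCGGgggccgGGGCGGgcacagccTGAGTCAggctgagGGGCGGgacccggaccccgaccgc
Capitals mark matches, on either strand, to 4 motifs. The first is the TATA box, searched as TATAAA. The next is the GC box, for which the letters were GGGCGG. The remaining motifs are the CCAAT box, named by its letters, and the AP-1 site, with the letters TGANTCA. These windows lie at chr2:13574061-13574310 on the plus strand for *Vim*, chr19:20390672-20390921 on the minus strand for *Anxa1*, chr9:69453433-69453682 on the plus strand for *Anxa2* and chr3:93520246-93520495 on the plus strand for *S100a11*. TATAAA began 32 bases before the start of *Vim*, 32 before that of *Anxa1* and 17 before that of *Anxa2*, and it was not found in the other 3 windows. Among 32851 promoter windows of the same length, 12.4% held it. The AP-1 letters occurred 1 time before *Anxa2* and 2 times before *S100a11*, against 6.75% of all windows with any match. The GC box letters occurred 3 times before *Anxa2* and 3 times before *S100a11* (32.7% of all windows), and CCAAT 2 times before *Vim* and 1 time before *S100a6* (33.8% of all windows). A further motif, the E box CACGTG, which the capitals do not mark, was found only before *S100a11* among the 6 (6.02% of all windows). The *Anxa5* window held none of the 5 motifs. These matches are descriptions of the sequence, and no binding was measured.

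All 10 genes had a higher mean in stromal than in other cells. A gene was called higher where its mean of log2(value + 1) was at least 2 above that of the other cells, and by this rule all 10 were called. Because the members were chosen with earlier results of these data known, this count is a description and not a test. The same rule called 16.4% of the 11478 genes that were above 0 in at least 3 cells. The share was 30.7% among genes above 0 in at least 10 cells and 58.5% among genes above 0 in at least 40, so that being called was common among widely found genes. The median difference over the members was 7.88, compared with 0.64 over all genes tested and 2.49 over the genes above 0 in at least 40 cells. At 100 or more reads, 8 of the 10 members had a share of stromal cells at least 50 points above that of other cells. So had 2.33% of all genes tested, and 235 of the 1305 genes above 0 in at least 40 cells. Intervals of shares given below are exact Clopper-Pearson intervals at 95%, which cover counting error only.

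**Figure D1:**
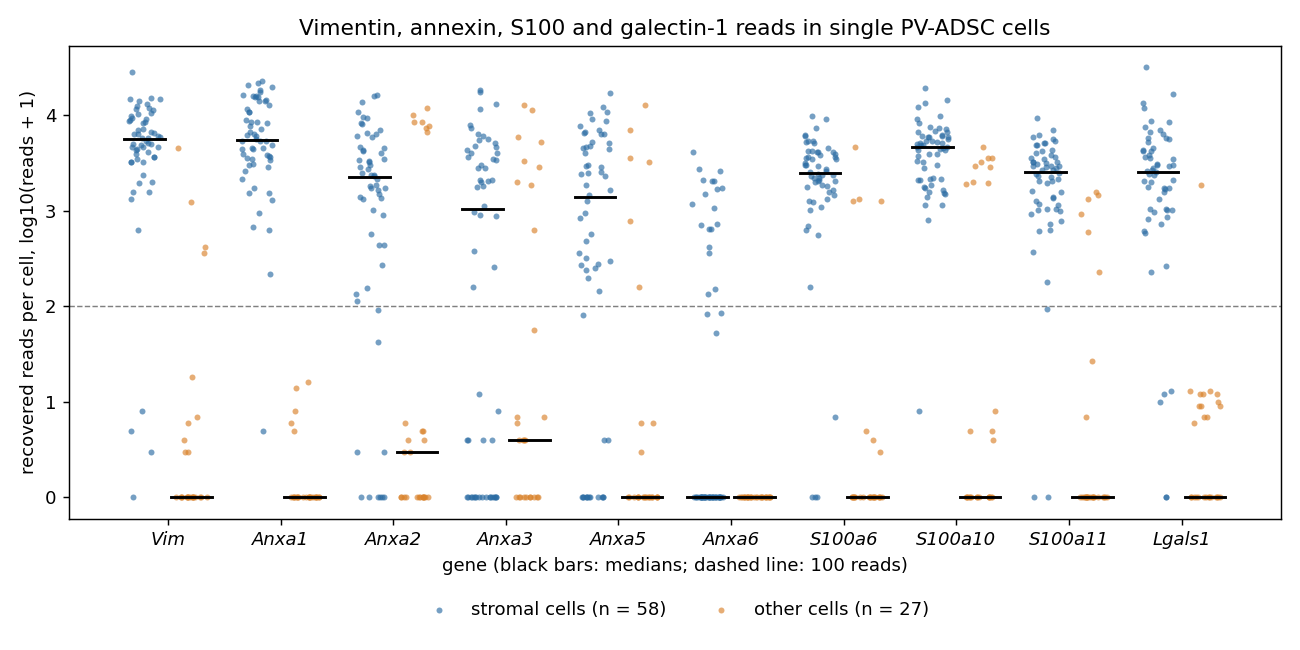
Recovered reads of each gene in every cell, on an axis of log10(reads + 1), for 58 stromal (blue) and 27 other cells (orange), with medians as black bars and 100 reads as a dashed line. Most stromal cells lie above the line for all genes except *Anxa6*, while the median of the other cells lies at 3 reads or fewer for every gene.

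*Vim* had 0 to 28317 reads in stromal cells with a median of 5597.5, and 0 to 4533 reads with a median of 0 in other cells. It was above 0 in 57 of 58 stromal cells (98.3%, interval 90.8 to 99.96%), the exception being the cell with the fewest reads, and in 10 of 27 other cells (37.04%, interval 19.4 to 57.6%). On the log2(value + 1) scale the mean was 11.68±2.90 (SD) in stromal and 2.03±3.62 in other cells, a difference of 9.65 that ranked 16 of the 11478 genes and was 9.85 without that cell. Few cells lay between high and absent. In stromal cells *Vim* was at 100 or more reads in 54 cells, in which it began at 623, and the other 4 held 7 or fewer. These 4 cells were not without the other members, with 1 to 6 of the 10 genes at 100 or more reads, and they had 850 to 2605 genes above 0. In other cells 4 reached 100 reads, with 361, 413, 1238 and 4533 reads, and the remaining 23 held 17 or fewer. Thus in these sorted cells *Vim* marked nearly every stromal cell and was at or near 0 in most cells with endothelial markers.

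*Anxa1*, whose product is a mediator in the resolution of inflammation, differed most. Its reads ran from 4 to 22999 with a median of 5556.5 in stromal cells, and from 0 to 15 in other cells, of which 5 were above 0. The lowest value in stromal cells belonged to the cell with the fewest reads, and without it the lowest was 217. The groups therefore did not overlap without that cell, which was true of 4 genes, *Anxa1*, *Col1a1*, *Col3a1* and *Dcn* itself (0.0348% of those tested). With that cell it was true of 0.0174%, and of no member. The mean on the log2(value + 1) scale was 12.25±1.81 in stromal and 0.60±1.34 in other cells, and the difference of 11.65 ranked 3 among all genes tested.

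Annexin A2, the product of *Anxa2*, is the partner of S100A10 in a cell surface complex that binds plasminogen and its activator. The gene had 0 to 16350 reads in stromal cells with a median of 2243.5 and was at 100 or more in 48 of 58. Of the other cells, 7 of 27 were at 100 or more reads and the remaining 20 held 5 or fewer. The 7 cells held 6735, 7455, 7798, 8460, 8635, 10208 and 11821 reads, all of them above the median of the 48 stromal cells at that level (2793.5). Only 9 of these 48 stromal cells exceeded the lowest of the 7. The ratio of the medians was 3.03 in reads, 2.995 in reads scaled to the depth of each cell (CPM) and 3.04 in deposited values. All 7 had 3 or more endothelial markers at 100 or more reads, with 1017 to 1731 genes above 0. The mean difference of 5.58 (9.54±4.08 in stromal and 3.96±5.68 in other cells) therefore joined a larger share of stromal cells to a higher level in those other cells that had the gene. The exons of *Anxa2* overlap *Gm16144* on the opposite strand, and as no strand is stated for the counting, reads of the pair cannot be told apart. The comparison within cells at 100 or more reads, here and for the genes below, was chosen with these values in view.

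*Anxa3* separated the groups least. It was above 0 in 41 of 58 stromal cells (70.7%, interval 57.3 to 81.9%) and in 17 of 27 other cells (62.96%, interval 42.4 to 80.6%). At 100 or more reads the counts were 35 and 9. Where it was at that level the median was 3476 reads in stromal and 3338 in other cells, and the order depended on the scale, as the ratio of other to stromal cells was 0.960 in reads, 1.297 in CPM and 1.66 in deposited values. Its reads reached 18640 in stromal cells (median 1040) and 12750 in other cells (median 3). The mean difference of 2.39 (7.23±5.51 in stromal and 4.84±5.43 in other cells) ranked 1445 of 11478, and it was 1.68, below the threshold of 2, among cells with at least 1000 genes. Its exons overlap those of *Gm42603* on the same strand in GENCODE vM21, so reads of the pair may have been shared.

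*Anxa5*, whose product is widely used to detect exposed phosphatidylserine, had 0 to 17124 reads in stromal cells with a median of 1381, and 0 to 12711 with a median of 0 in other cells. It was at 100 or more reads in 43 of 58 and in 6 of 27 cells. The 6 other cells held 160, 790, 3272, 3548, 7011 and 12711 reads, and their median of 3410 was above the 2860 of the stromal cells at that level. The ratio of these medians depended on the scale, with 1.19 in reads, 1.72 in CPM and 2.99 in deposited values. The mean difference was 5.41 (8.42±4.74 in stromal and 3.004±5.16 in other cells).

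*Anxa6*, which encodes the annexin with a doubled core, was the rarest member. It was above 0 in 22 of 58 stromal cells (37.9%, interval 25.5 to 51.6%), with 0 to 4121 reads and a median of 0. It was at 0 in all 27 other cells, which allows a share of up to 11.1%. Among the 19 stromal cells at 100 or more reads the median was 1166. Its mean in stromal cells was 3.57±4.76. A difference in medians could not show it, as both medians were 0.

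Among the 27 other cells *Anxa2*, *Anxa3* and *Anxa5* were at 100 or more reads in 7, 9 and 6 cells. These low counts by themselves limit how often the genes occur in the same cell. Of *Anxa2*, *Anxa3* and *Anxa5*, at least 1 was at 100 or more reads in 18 of the 27 cells, 14 of these had exactly 1 of them, 4 had 2 and 0 had all of them. *Anxa2* (7 cells) and *Anxa5* (6 cells) were together in 0 of the 27. In stromal cells, where *Anxa2* was in 48 and *Anxa5* in 43 of 58, they were together in 37. The contrast between the groups thus follows the shares of the single genes. With so few other cells, absence from the same cell is not a finding about either gene.

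The S100 genes were found in almost every stromal cell. *S100a10* was above 0 in all 58, from 7 to 19419 reads with a median of 4674.5, and at 100 or more in 57. It had the smallest spread of the members in stromal cells, with a mean of 11.84±1.51. In other cells it was at 100 or more reads in 9 of 27, with 1912 to 4711 reads, and at 7 or fewer in the remaining 18. The median of the 9 cells, 2953 reads, was 0.630 of that of the stromal cells at this level, and 46 of those 57 stromal cells lay above the lowest of the 9. *S100a10* kept a high level even in the cell with the fewest reads, where it had 1160 reads and every other member had 11 or fewer. The difference in means was 7.58, as the other cells had a mean of 4.26±5.37.

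*S100a6*, which encodes calcyclin, had 0 to 9922 reads in stromal cells with a median of 2479.5. It was above 0 in 55 of 58 stromal cells (94.8%, interval 85.6 to 98.9%) and in 7 of 27 other cells (25.9%, interval 11.1 to 46.3%). Only 4 other cells reached 100 reads, with 1261, 1283, 1326 and 4702. The mean difference was 8.71 (10.58±2.78 in stromal and 1.87±3.98 in other cells), which ranked 29 and was 8.81 without the cell with the fewest reads.

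*S100a11* had 0 to 9426 reads in stromal cells with a median of 2574, and was at 100 or more in 55 of 58. In other cells it was at 100 or more in 6 of 27, with 228 to 1565 reads, and all 6 were below the median of the stromal cells at that level (2688). The mean difference was 8.18 (10.64±2.34 in stromal and 2.45±4.14 in other cells), and 8.37 without the cell with the fewest reads. It was the only member of the 10 with near-identical transcripts of other genes that have a row here. The processed pseudogenes *Gm7665* and *Gm12854* were 98.7% and 99.0% identical to it over 297 aligned bases. They had a median of 170.5 and 102.5 reads in stromal cells and their rank correlation with *S100a11* was 0.92 and 0.91. Reads of the 3 genes cannot be told apart with certainty. Their sum was above 0 in 57 stromal and 10 other cells and at 100 or more in 55 and 6, the same counts as for *S100a11* alone at that level.

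*Lgals1* was above 0 in 56 of 58 stromal cells, with 0 to 31832 reads and a median of 2572, the highest single count of all members. It was also above 0 in 13 of 27 other cells (48.1%, interval 28.7 to 68.1%), but 12 of these 13 held 12 reads or fewer and only 1, with 1856 reads, reached 100. At 100 or more reads the shares were 91.4% (interval 81.02 to 97.1%) of stromal and 3.70% (interval 0.0937 to 18.97%) of other cells. The mean difference of 8.46 (10.64±2.79 in stromal and 2.18±2.69 in other cells) ranked 40. *Lgals1* and *Anxa1* were thus the members for which the other cells above 0 held almost only single or low double digits of reads.

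**Figure D2:**
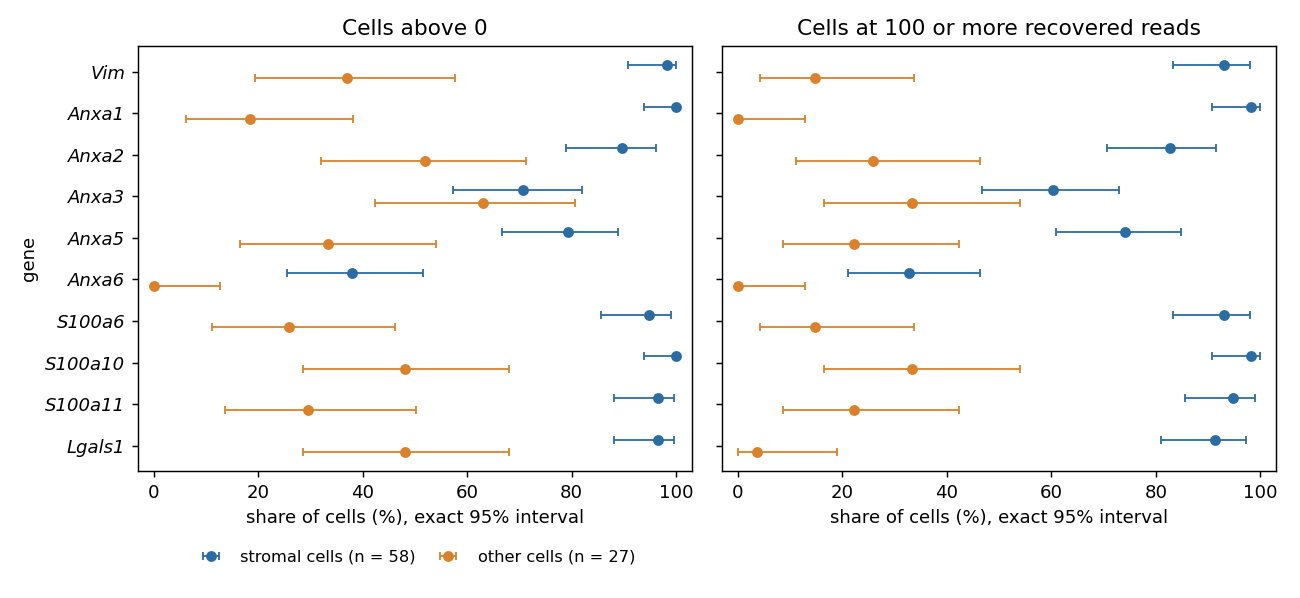
Share of cells above 0 (left) and at 100 or more recovered reads (right) for each gene, in percent with exact intervals at 95%, for 58 stromal (blue) and 27 other cells (orange). The shares in other cells fell most between the panels for *Lgals1*, from 48.1% to 3.70%, and the intervals of the 2 groups overlapped for *Anxa3* in both panels.

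The members were also counted per cell. This count follows from the shares of the single genes given above and is no separate evidence that they occur together. No such count was made for other sets of genes. A stromal cell held a median of 8.5 of the 10 genes at 100 or more reads, from 1 to 10, and 48 of 58 cells held 8 or more. An other cell held a median of 2, from 0 to 4, and 7 of 27 held none. These counts moved with the number of genes in a cell. The 5 other cells with under 1000 genes held no member at that level, and the remaining 22 held 0 to 4 with a median of 2. Among stromal cells, the 4 with 2000 or fewer genes held 1 to 8 members and the 54 with more held 6 to 10. Only 1 other cell had more than 2000 genes, and it held 1 member, *Anxa3*. The number of genes and the kind of cell could not be told apart for most cells. Of the listed markers of macrophages, smooth muscle cells and pericytes, adipocytes, Schwann cells and lymphocytes, 11 of 33 had a row. The adipocyte marker *Lpl* was at 100 or more reads in 41 of 58 stromal and 11 of 27 other cells and *Adipoq* in 1 and 0. Of the smooth muscle and pericyte markers, *Abcc9* was at that level in 8 stromal and 0 other cells, *Rgs5* in 0 and 3 and *Mcam* in 0 and 2. The Schwann cell marker *Mbp* was so in 3 and 0. The rest of the 11 were at that level in at most 2 stromal and 0 other cells. The mesothelial marker *Wt1* was at that level in 18 stromal and 0 other cells. The part of these in the results was not tested. The 2 stromal cells with 3 or more of 6 mesothelial markers at 100 or more reads held all 10 members, as did 6 further stromal cells, and the 1 stromal cell with 3 or more endothelial markers held 9.

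**Figure D3:**
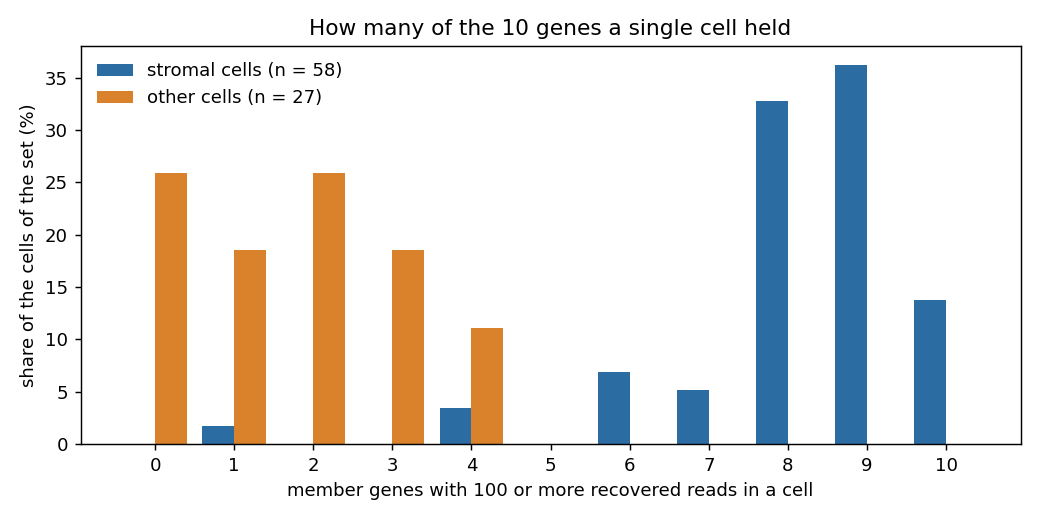
Share of the cells of each set, in percent, that held a given number of the 10 genes at 100 or more recovered reads, for 58 stromal (blue) and 27 other cells (orange). The stromal cells lie mostly at 8 to 10 genes and the other cells at 0 to 4.

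**Figure D4:**
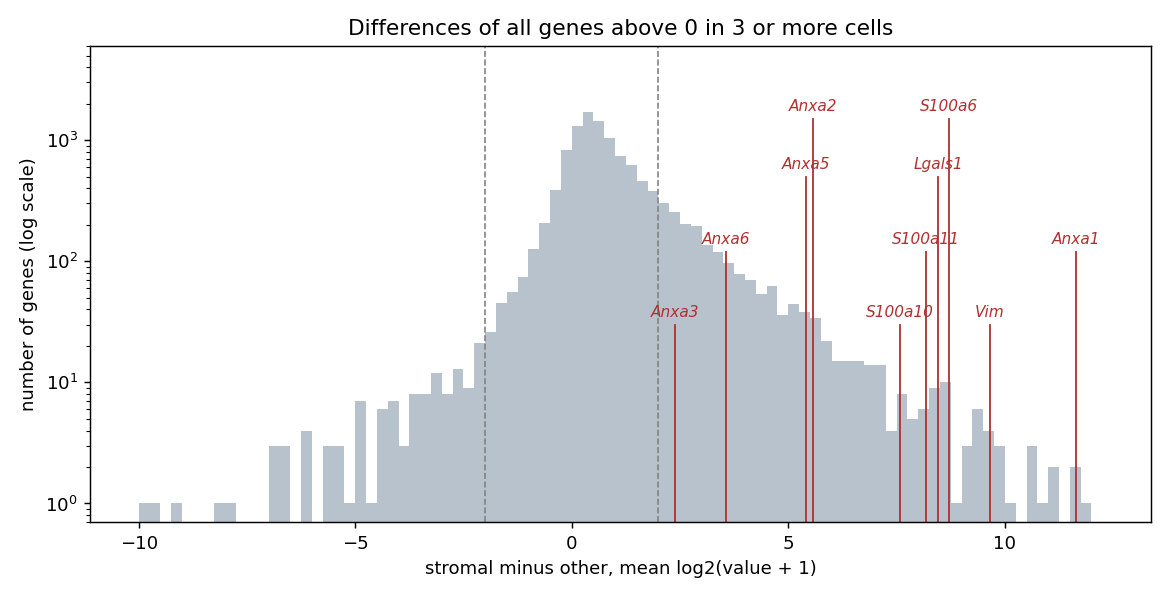
Number of genes, on a log axis, by the difference of stromal minus other cells in mean log2(value + 1), for the 11478 genes above 0 in at least 3 cells. The 10 members, drawn as red lines whose height has no meaning, run from 2.39 (*Anxa3*) to 11.65 (*Anxa1*), and dashed lines mark differences of 2 and -2.

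Levels were compared between genes per length, as TPM, the reads divided by the exon length of GENCODE vM21 and scaled to the same sum in every cell. In stromal cells the order by median TPM was *S100a11* (3992), *S100a10* (3171), *Lgals1* (2491), *Anxa1* (1901), *S100a6* (1605), *Vim* (887), *Anxa5* (652), *Anxa2* (508), *Anxa3* (323) and *Anxa6* (0). By this measure the small S100 and galectin genes stood high, with *S100a11* at rank 22 and *Vim* at rank 89 of the 1619 genes with a median above 0. The order depends on the exon lengths used, which were 511 bases for *S100a11* and 4743 for *Vim*. In reads, *Vim* had the higher stromal median, 5597.5 against 2574 for *S100a11*. Other lengths were not tested. Neighbours in the order by TPM overlapped widely over the cells. The interquartile range was 2186 to 5781 TPM for *S100a11*, 1770 to 4332 for *S100a10* and 977 to 4150 for *Lgals1*. It was 1052 to 3083 TPM for *Anxa1* and 610 to 1610 TPM for *Vim*. In other cells the median TPM was 0 for all members except *Anxa2* and *Anxa3*, for which it was below 1 TPM (0.186 and 0.656).

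Within stromal cells the members moved together only loosely. Over the 45 pairs, Spearman's rho across the 58 cells had a median of 0.11 and ranged from -0.17 to 0.45, with 31 pairs above 0 and 9 pairs at 0.3 or more. As all points share the library preparation and the number of genes in a cell, these are descriptions without a p value. The highest values were those of *Anxa1* with *Anxa3* (0.45), *Anxa2* with *S100a11* (0.44) and *Anxa3* with *S100a11* (0.44). *Vim* stood apart from the rest, with a median of -0.06 over its 9 pairs and a highest value of 0.15. Part of the values followed the number of genes in a cell, with which rho was 0.45 for *Anxa2*, 0.39 for *S100a6* and -0.15 for *S100a10*. Given that number, the median over the pairs was 0.09.

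*Anxa2* and *S100a10* had a rho of 0.04, which 30 of the 45 pairs exceeded, and *Anxa1* and *S100a11* one of 0.31, which 8 pairs exceeded. The value of *Anxa2* with *S100a10* was near 0 under every setting, from -0.06 for Pearson's r on log2(value + 1), which 39 pairs exceeded, to 0.12 given the number of genes, which 17 pairs exceeded, so that its rank among the pairs depended on the measure. *Anxa1* with *S100a11* was exceeded by 2 pairs for Pearson's r and by 7 or 8 otherwise. *Anxa2* and *S100a10* were both at 100 or more reads in 47 of the 58 stromal cells, only *S100a10* in 10 and only *Anxa2* in 1. As *S100a10* was at that level in 57 of these cells and *Anxa2* in 48, the joint count was nearly fixed and says nothing about pairing. In other cells both were at that level in 3, only *Anxa2* in 4, only *S100a10* in 6 and neither in 14. *Anxa1* and *S100a11* were both at that level in 55 stromal cells and in 0 other cells, where *S100a11* reached it in 6 without *Anxa1*. These counts too were nearly fixed. *Anxa1* was at that level in 57 stromal and 0 other cells, and *S100a11* in 55 stromal cells.

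**Figure D5:**
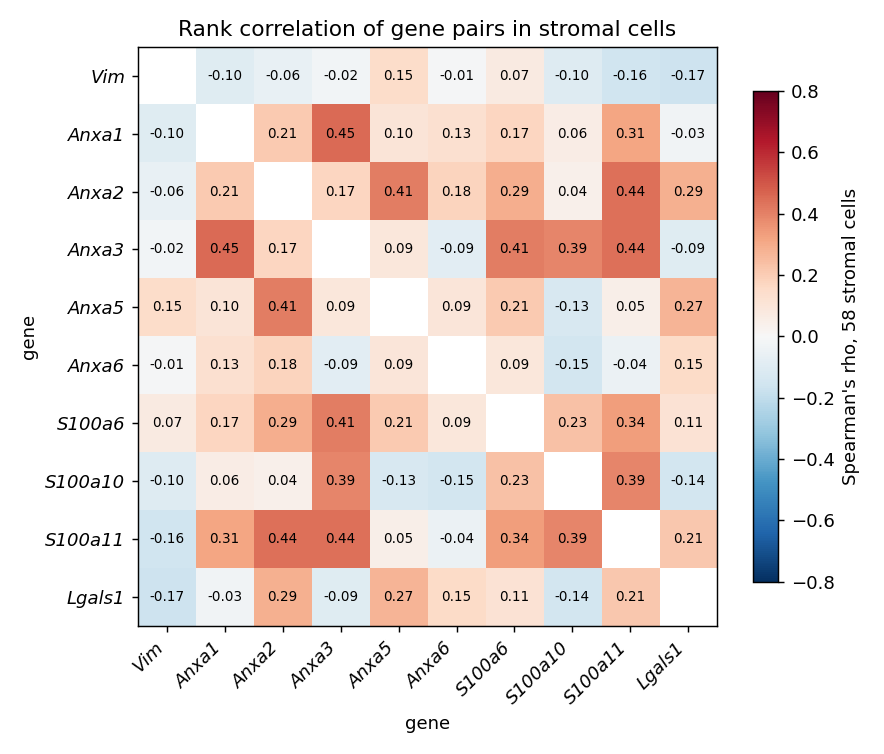
Spearman's rho of the deposited values for each pair of the 10 genes over 58 stromal cells, with the value printed in each field and red for positive values. Values run from -0.17 to 0.45, with the row of *Vim* near or below 0 and the field of *Anxa2* with *S100a10* at 0.04.

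The genes most like the members were sought among 583 genes above 0 in at least 80% of stromal cells, by Spearman's rho over the same 58 cells. For *Vim* these were *Gm2225* (0.46), the RNA-binding immediate early gene *Zfp36* (0.45), the imprinted noncoding RNA *Meg3* (0.44), the cytochrome c oxidase subunit gene *Cox6c* (0.42) and the AP-1 subunit gene *Junb* (0.41), against a median of 0.08 over all candidates. For the mean of the members' standardized levels they were *Gm7665* (0.58), the cytoplasmic actin gene *Actg1* (0.53), *Gm12854* (0.52), *Tppp3* (0.43) and *Gm8894* (0.41), against a median of 0.07. *Gm7665* and *Gm12854* are the *S100a11* copies named above, so their place repeats that of a member, while *Gm8894* is near-identical to the myosin light chain gene *Myl6* and *Gm2225* to the ribosomal protein gene *Rps25*. *Actg1* and *Cox6c* also have near-identical processed pseudogenes with a row. Examples are *Gm12715* (99.6% over 1128 bases) for *Actg1* and *Gm16399* (95.3% over 214 bases) for *Cox6c*. A shorter match, of 141 bases, joined *Zfp36* to *Tbk1*. Reads of such pairs may have been shared.

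Related genes were taken from lists of further annexins, S100 genes, galectins, intermediate filaments with their linkers, and partners in membrane repair and annexin complexes. Of 55 listed, 37 had a row and 27 were above 0 in at least 3 cells. Of these 27, 10 were called higher (16.4% of all genes tested were, and 30.7% of those above 0 in at least 10 cells), 2 were called lower (1.09% of all genes tested were) and 15 were not called, with a median difference of 0.92. Of the further annexins, *Anxa4* (difference 4.06) was above 0 in 27 of 58 stromal and 2 of 27 other cells and *Anxa7* (4.29) in 29 and 3, whereas *Anxa11* (0.50) had at most 21 reads in any cell and was not called.

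Among the further S100 genes, *S100a16* (4.10) and *S100a13* (2.03) were called higher. *S100a4*, widely used as a fibroblast marker and the second gene before *S100a6* on chromosome 3 in the RefSeq annotation, was above 0 in 2 of 58 stromal and 0 of 27 other cells, compared with 55 and 7 for *S100a6*. The exons of *S100a4* overlap *Gm42674* on the same strand, so its values are uncertain. *S100a1* was above 0 in 23 stromal and 11 other cells, with a highest count of 2577 reads in stromal and 13316 in other cells and a difference of -0.97 that was not called.

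No further galectin gene was called. *Lgals9* was above 0 in 25 stromal and 9 other cells (difference 0.89), and *Lgals3*, another galectin gene, in 5 and 0. Of the intermediate filament list, *Lmna* (2.96), which encodes the nuclear lamins A and C, was called higher. *Plec*, which encodes the linker protein plectin, differed by 1.65 and was not called. The muscle filament gene *Des* was above 0 in 1 stromal cell and *Nes*, which encodes nestin, in 1 other cell.

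Of the partners in membrane repair and annexin complexes, 5 of the 9 tested were called higher and 2 lower. Of all genes tested, 16.4% were called higher and 1.09% lower, and 30.7% of those above 0 in at least 10 cells were called higher. *Plat*, the gene of the tissue plasminogen activator, which the annexin A2 complex binds, had the largest difference of the related genes (6.96). It was at 100 or more reads in 38 of 58 stromal cells and at 17 or fewer in all other cells. *Ahnak* (4.19), which encodes a giant scaffold protein bound by that complex, was above 0 in 57 stromal and 14 other cells, and *Ahnak2* (3.42) in 31 and 1. *Capns1* (4.51), the small calpain subunit, and *Myof* (2.196), which encodes the ferlin myoferlin, were also called higher. The calls in the other direction were *Dysf* (-2.001), the gene of the membrane repair ferlin dysferlin, and *Tgm2* (-2.08), which encodes a transglutaminase. *Dysf* was at 100 or more reads in 0 stromal and 5 other cells and *Tgm2* in 4 and 6, and neither was called on CPM. On the deposited values the 2 ferlins thus lay on opposite sides, each with few cells behind it. The higher calls also depended on the scale, as 8 related genes were called higher on CPM in place of 10. The exons of *Anxa4*, *Capns1*, *Dysf* and *Tgm2* overlap genes on the opposite strand, which leaves their values less certain.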

How the data were processed

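Single PV-ADSCs were sequenced with SMART-seq v4 as 1 library per cell. The authors used FastQC for read quality, HISAT2 2.0.5 for alignment to mm9, SAMtools 1.4 and StringTie 1.3.3, and scater to keep cells and to scale the values by its default method. The counting program is not given in the sources used here. The deposited values are a signal of normalized read counts, in 1 matrix of 16069 genes and 85 cells. The members and gene lists were chosen with earlier results of these data known.

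The deposited values were whole reads multiplied by a factor per cell that was shared by groups of genes. A total of 10665 genes were whole in every cell, and for the other 5404 genes, in 13 groups, the factors (0.0157 to 94.5) were found and divided out by a method that was chosen with the values in view. Of 144272 values, 4 were not whole within a relative tolerance of 2e-09 and were rounded. A simulation over 16069 genes, with 13 groups and factors of 0.231 to 5.50, returned 100% of the reads. More extreme factors were not simulated. The 10 genes lay in 3 of the groups. Their factors had medians of 0.849 to 1.08 in stromal and 1.06 to 1.14 in other cells.

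Differences between cells used log2(value + 1) of the deposited values without further scaling, over genes above 0 in at least 3 cells, and a gene was called at a difference of 2 in either direction. All cells are 1 sample, so no count model or test was applied. A share of 0 is given with a limit of 3 cells of the total. TPM used exon lengths of GENCODE vM21 (GRCm38), for 15579 genes, since no genome of the mm9 build was used here. Near-identical transcripts were sought with blastn 2.17.0 at 95% identity or more over at least 100 bases. Genes named beyond the members were all related genes called either way, some not called beside them, and the 5 genes most correlated with *Vim* and with the members' mean. Python 3.11.15, numpy 2.4.6, pandas 2.3.3 and scipy 1.17.1 were used. Alternatives changed the pseudocount, the scaling, the *Dcn* threshold, the filters on genes and cells, the level of detection and the measure of correlation.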

Additional observations from a re-analysis of the deposited data

How the results depend on the processing

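No paired analysis was possible because all cells form 1 group, and for the same reason no replicate was left out. Across 12 other settings, 9 or 10 of the members were called higher. The call was lost for *Anxa3* with a pseudocount of 10 (1.88) and with cells of at least 1000 genes (1.68), and for *Anxa6* with a difference in medians (0). No difference of a member changed sign in 120 recomputed values. The median difference of the members moved to 11.08 with a difference in medians and was 5.797 to 9.72 under the rest. The share of all genes called higher ranged from 7.19% with a pseudocount of 10 to 30.7%.

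In each of 7 other settings, all 10 members were above the level in a larger share of stromal than other cells. Of 140 recomputed shares, 12 lay outside the interval of the reported share, mostly in other cells at 10 or 100 reads. The median correlation of the pairs was 0.09 to 0.16 and that of *Anxa1* with *S100a11* 0.28 to 0.43. Of the related genes, 6 were called higher with a difference in medians and 7 to 13 under the rest. The count called lower fell to 1 with cells of at least 1000 genes, under the filter of 10 cells per gene and without the cell with fewest reads, and to 0 with a pseudocount of 10, with CPM, with a *Dcn* threshold of 10000 or 1000 recovered reads, and with a difference in medians. The cause was not tested. Leaving out the cell with fewest reads, setting the stromal threshold at 1000 recovered *Dcn* reads and recomputing the related genes were chosen after seeing the data. At 27 other cells, a gene seen in none may still be present in up to 11.1% of them (12.8% by the exact interval). The 1 condition without named animals gives no measure of the spread between mice.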
